A study of Mus musculus with 2 samples.

Results

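Grm7, Tenm2, Nrg3, Lrrtm4, Kcnip4, Astn2, Unc5d, Shank2, Hs3st4 and Hdac9 were measured in CXCL12-abundant reticular (CAR) cells of mouse long-bone marrow. Most of them are best known from the nervous system, and the set is 10 of the 34144 genes in the deposited matrices. The genes were chosen by their names from an earlier reading of these libraries, in which they stood higher in old than in adult CAR cells, so the difference between the libraries is given here as a description and supports nothing by itself. CAR cells were defined by a gate of at least 10 unique molecular identifiers (UMIs, counts of distinct captured mRNA molecules) of Cxcl12 and at least 1 UMI of Lepr. The gate held 16497 of 22403 adult cells and 13544 of 18975 old cells.

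Each age is 1 library, of single-cell RNA captured at the 3′ end of polyadenylated transcripts on the 10x Genomics platform. Both libraries came from flushed and enzyme-digested long bone of WT mice, given as strain C57BL6 in one label and C57BL6J in another. Haematopoietic cells had been depleted by magnetic separation, and cells had been sorted by light scatter and by exclusion of the DNA dye DAPI. Age is labelled only as adult or old, and the number of mice, their sex and any pooling are not stated in the labels. With 1 library per age there is no replicate, no test was made between ages, and age cannot be told apart from any other difference between the 2 libraries. Intervals are exact 95% intervals (Poisson for sums, binomial for shares) and cover counting error only.

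CAR cells are the perivascular stromal cells that supply CXCL12 and KIT ligand to haematopoietic stem and progenitor cells in the marrow. Most of the genes studied here encode parts of the machinery by which neurons send, receive and organise signals. Most also spread their exons over a very long locus with large introns. Grm7 encodes a metabotropic glutamate receptor, and Tenm2, Lrrtm4, Astn2 and Unc5d encode membrane proteins of synaptic adhesion, neuronal migration or axon guidance. Nrg3 encodes a growth factor that binds ERBB4. Kcnip4 encodes a potassium channel subunit, Shank2 a postsynaptic scaffold, Hs3st4 a heparan sulfate sulfotransferase and Hdac9 a class IIa histone deacetylase that binds MEF2 factors.

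The start-site windows of the genes differed widely in base composition. RefSeq windows of 300 bases, from 250 before to 50 after each annotated start, were matched for 8 of the 10 genes (12 windows, build GRCm38.p6, whereas the counts were made on GRCm39). Unc5d and Shank2 were not matched. The 5 windows shown are those of the 3 genes with most UMIs in old CAR cells, for 1 start each, and 2 more that hold the letters CCCNNGGG, the core of the site bound by early B cell factors, of which Ebf1 and Ebf3 are CAR cell regulators. Capitals mark CCCNNGGG and, in Nrg3, CAGCACC, the left end of the site of the neuronal repressor REST, both searched on both strands.
Grm7, chr6:110645262-110645561, plus strand: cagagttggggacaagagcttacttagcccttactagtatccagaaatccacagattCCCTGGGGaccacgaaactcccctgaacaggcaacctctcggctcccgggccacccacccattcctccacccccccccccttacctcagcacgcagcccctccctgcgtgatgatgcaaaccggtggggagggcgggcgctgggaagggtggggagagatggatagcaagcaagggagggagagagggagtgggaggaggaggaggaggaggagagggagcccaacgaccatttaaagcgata
Tenm2, chr11:36944192-36944491, minus strand: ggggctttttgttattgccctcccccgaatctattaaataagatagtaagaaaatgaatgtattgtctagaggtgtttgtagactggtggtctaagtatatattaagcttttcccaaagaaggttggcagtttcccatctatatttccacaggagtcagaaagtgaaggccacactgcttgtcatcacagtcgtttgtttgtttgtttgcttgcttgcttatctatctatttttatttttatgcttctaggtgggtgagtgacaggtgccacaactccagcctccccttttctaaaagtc
Nrg3, chr14:39473039-39473338, minus strand: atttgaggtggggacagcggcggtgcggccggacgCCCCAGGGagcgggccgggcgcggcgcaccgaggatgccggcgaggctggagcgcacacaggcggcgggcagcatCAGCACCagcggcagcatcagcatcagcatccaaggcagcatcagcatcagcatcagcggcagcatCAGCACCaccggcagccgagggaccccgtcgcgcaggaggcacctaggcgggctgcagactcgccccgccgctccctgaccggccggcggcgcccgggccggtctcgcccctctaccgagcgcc
Kcnip4, chr5:48599633-48599932, minus strand: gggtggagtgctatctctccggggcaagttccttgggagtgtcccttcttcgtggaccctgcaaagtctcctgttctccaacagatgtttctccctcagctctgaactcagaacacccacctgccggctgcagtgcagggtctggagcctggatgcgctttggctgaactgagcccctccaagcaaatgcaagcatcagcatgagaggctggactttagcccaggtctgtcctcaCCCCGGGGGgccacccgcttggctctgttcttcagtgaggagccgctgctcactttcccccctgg
Hs3st4, chr7:123982578-123982877, plus strand: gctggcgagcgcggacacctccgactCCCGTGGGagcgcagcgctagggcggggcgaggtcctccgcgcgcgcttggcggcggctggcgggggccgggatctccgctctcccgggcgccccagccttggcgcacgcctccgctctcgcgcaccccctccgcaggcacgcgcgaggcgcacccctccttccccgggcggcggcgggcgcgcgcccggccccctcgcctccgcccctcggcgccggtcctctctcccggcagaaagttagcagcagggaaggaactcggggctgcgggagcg

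CCCNNGGG was found in 1 window each of 4 genes (Grm7, Nrg3, Kcnip4 and Hs3st4), among the 12 windows searched. The other window of Grm7 and that of Kcnip4 did not hold it. Of all 32851 mouse windows of this length, 13.7% hold it. The 2 matches in Kcnip4 overlap each other. CAGCACC occurred at 2 places in the Nrg3 window and in no other of the 12, against 7.14% of all windows. GTAAACA, a forkhead factor core, was in none of the 12 and in 3.65% of all windows. The GC content of these windows ran from 40% in Tenm2 to 79.3% in Hs3st4, against a median of 52.7% over all windows, and the shares over all windows were not matched for it. A match is a description of the letters and not a bound site, and no match says only that the letters are not in this window.

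The gated cells carried the defining markers of CAR cells and almost none of neurons. All 10 CAR markers left out of the gate (Kitl, Adipoq, Ebf3, Foxc1, Pdgfra, Pdgfrb, Cxcl14, Il7, Vcam1 and Ebf1) were detected, each in 52.7% to 99.6% of cells, and their summed level was 13772 CPM (adult) and 14150.5 CPM (old). CPM are the UMIs of a gene in every 1000000 UMIs of the summed cells. Of 12 neuron markers, 1 was at 0 and 10 were below 1 CPM in each library, and their sum was 11.4 CPM (adult) and 8.97 CPM (old). The 8 Schwann cell markers summed to 452 CPM (adult) and 366 CPM (old), mostly from S100b and Ncam1, and 2 and 3 of them were below 1 CPM. The label "neuronal-type" therefore describes the genes and not the cells.

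The CAR gates of both libraries had similar depth, with medians of 7855 UMIs per adult cell and 8096.5 per old cell and mitochondrial shares of 2.30% and 2.27%. They differed in the transcripts of other cell types. Igkc, an immunoglobulin light chain gene of plasma cells, stood at 0.787 CPM (adult) and 20975 CPM (old) in CAR-gate cells, whereas Col1a1, the main bone collagen, stood at 9973 and 298 CPM. Adult CAR-gate cells also passed the marker gate of another class in 53.9% of cases, mostly of osteolineage cells, against 20.3% of old ones, and 604 adult and 0 old CAR-gate cells passed the chondrocyte gate. Such transcripts were also found in other cell classes. Bglap, a marker of the osteolineage gate, had a UMI in 72.4% of adult and 2.65% of old cells of the endothelial class. Igkc had a UMI in 0.0907% and 100% of them. Whether cells passing another gate were mixed cells was not tested. No doublets were removed. Levels are therefore also given below without cells that passed another class gate, which leaves out unlike shares of the 2 libraries. The part of such transcripts in the other values was not tested.

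Grm7 and Hdac9 had the largest ratios of the 10. Grm7 stood at 18.4 CPM (interval 17.7 to 19.1) in the adult and 319.8 CPM (317 to 323) in the old library, a log2 ratio of 4.12 (4.07 to 4.18). Cells with a UMI of Grm7 made up 6.19% of the adult and 39.9% of the old gate, and the positive cells held 2.74 and 8.03 UMIs on average. Both the share of positive cells and the UMIs in each of them were thus higher in the old library. Hdac9 stood at 14.7 CPM (14.1 to 15.3, adult) and 188 CPM (186 to 190.3, old), a log2 ratio of 3.67 (3.61 to 3.74). It was detected in 5.64% of adult and 31.6% of old cells, with 2.42 and 5.96 UMIs per positive cell. Grm7 ranked 39 and Hdac9 48 from the top by ratio among the 9753 genes that passed the minimum level (10 CPM and 100 UMIs, in whichever library had more of the gene).

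Tenm2, a teneurin that binds latrophilins across the synapse, was already abundant in the adult library. Its level was 68.0 CPM (66.7 to 69.4, adult) and 289 CPM (286 to 291, old), a log2 ratio of 2.08 (2.05 to 2.12), and its positive share went from 15.3% to 34.5%. Nrg3, whose protein is a growth factor for ERBB4-bearing cells, had the most UMIs of the 10 genes in each library and the smallest ratio, with 291 CPM (288 to 294, adult) and 382 CPM (378 to 385, old), a log2 ratio of 0.39 (0.37 to 0.41). The share of Nrg3-positive cells was 39.4% in adult and 38.7% in old cells, and the UMIs per positive cell were 6.83 and 9.89. At equal depth, with cells thinned to 3000 UMIs, the order of the shares turned, at 29.1% (adult) and 31.0% (old). Without cells passing another class gate the Nrg3 levels were 403 and 462 CPM, a log2 ratio of 0.20.

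**Figure D1:**
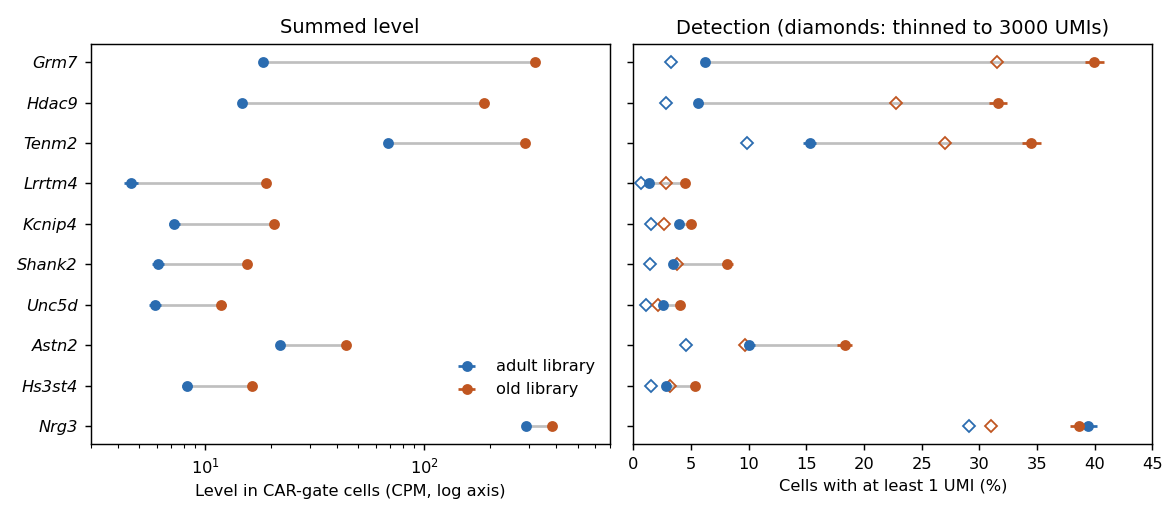
Level in CPM (left, log axis) and share of cells with at least 1 UMI (right) of the 10 genes in adult (blue) and old (orange) CAR-gate cells, 1 library each; bars are exact 95% counting intervals and open diamonds are shares after every cell was thinned to 3000 UMIs. Grm7 runs from 18.4 to 319.8 CPM, whereas the positive shares of Nrg3 lie at 39.4% and 38.7%.

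The other 6 genes were sparse, with at most 43.9 CPM in either library. Among the membrane proteins, Astn2 stood at 22.0 CPM (adult) and 43.9 CPM (old), with an interval of the log2 ratio of 0.93 to 1.06, Lrrtm4 at 4.59 and 18.9 CPM (log2 ratio 2.04, interval 1.92 to 2.16) and Unc5d at 5.89 and 11.9 CPM (1.01, 0.89 to 1.13). These encode, in turn, an astrotactin of neuronal migration, a postsynaptic ligand of glypicans and neurexins, and a receptor of netrins and FLRT proteins. Kcnip4 stood at 7.24 and 20.6 CPM (1.51, 1.41 to 1.61), Shank2 at 6.11 and 15.5 CPM (1.34, 1.23 to 1.46) and Hs3st4 at 8.25 and 16.3 CPM (0.98, 0.88 to 1.09). Every one of the 6 was higher in the old library, and none was detected in more than 10.1% of adult or 18.3% of old cells, the values of Astn2.

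Leaving out cells that passed another class gate moved the ratios of Shank2, Hs3st4 and Lrrtm4 by over 1.5 times. In the cells left, Shank2 stood at 1.47 CPM (adult) and 8.85 CPM (old), a log2 ratio of 2.59, Hs3st4 at 2.72 and 14.2 CPM (2.39), and Lrrtm4 at 2.47 and 18.9 CPM (2.94). Most of the adult level of Shank2 and Hs3st4 therefore lay in cells that also passed another gate. Astn2 stood at 15.6 and 43.1 CPM (1.46) and Unc5d at 3.21 and 6.68 CPM (1.06) in the same cells. Grm7, at 23.5 and 397 CPM (4.08), Hdac9, at 17.1 and 238 CPM (3.80), and Tenm2, at 81.8 and 356 CPM (2.12), had ratios within 0.13 of those over all gated cells.

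Read against all genes, 7 of the 10 were at least 2-fold higher in the old library, and Nrg3, Astn2 and Hs3st4 were not. All 10 passed the minimum level, but Lrrtm4, Kcnip4, Unc5d, Shank2 and Hs3st4 did so only through their old level. Of the 9753 genes past it, 375 were at least 2-fold higher in old cells, which is 3.84%, and 350 were at least 2-fold lower, which is 3.59%. The median log2 ratio was 1.43 over the 10 genes and 0.04 over all 9753. Since the 10 were selected on this contrast, nothing is read from the difference. Astn2 and Hs3st4 lie at 1.99-fold and 1.98-fold, just under the fold used, and Unc5d at 2.01-fold, just over it.

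Cells with many UMIs of the 4 abundant genes were more common in the old library. In the old library, 11.1% of CAR-gate cells had at least 10 UMIs of Grm7, 10.3% of Tenm2, 12.7% of Nrg3 and 5.74% of Hdac9. In the adult library the same shares were 0.309%, 1.62%, 8.37% and 0.145%. The 10% of old cells with most Grm7 held 65.5% of its UMIs, beside 68.7% for Tenm2, 67.9% for Nrg3 and 72.8% for Hdac9. In the adult library, where fewer than 10% of cells held Grm7 or Hdac9 at all, the 5% of cells with most held 93.0% and 95.3% of their UMIs. For Lrrtm4, Kcnip4, Unc5d and Hs3st4, under 0.6% of cells in either library had 10 UMIs or more.

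**Figure D2:**
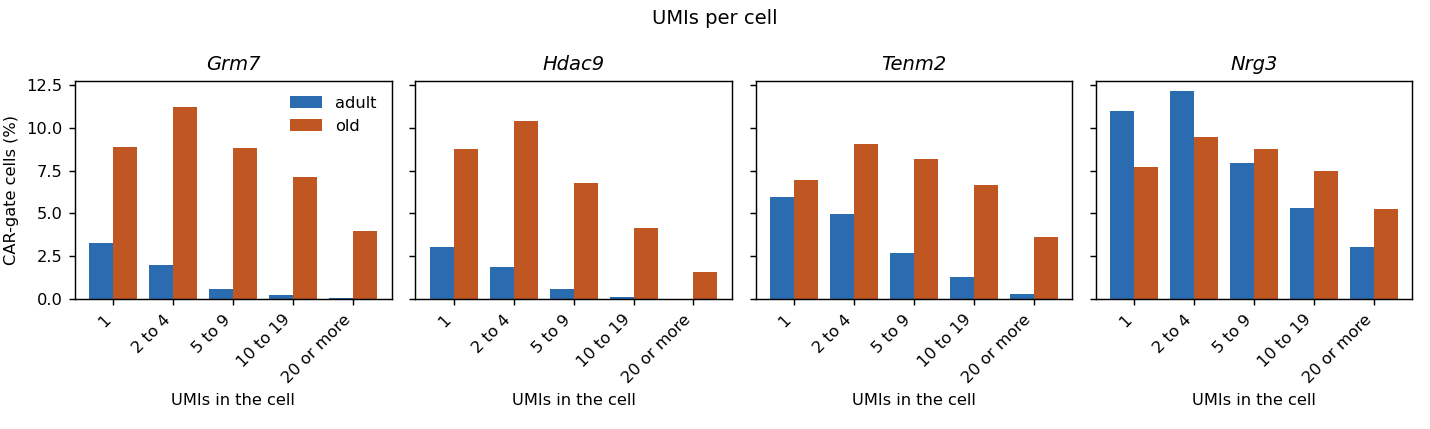
Share of CAR-gate cells (vertical axis, percent) by the number of UMIs of Grm7, Hdac9, Tenm2 or Nrg3 in the cell (horizontal axis), for the adult (blue) and old (orange) library; cells with 0 UMIs are not drawn. For Grm7, 3.99% of old and 0.0485% of adult cells hold 20 UMIs or more, whereas for Nrg3 these shares are 5.26% and 3.06%.

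The differences in detection of Grm7, Hdac9 and Tenm2 were also present at equal depth. When every cell was thinned to 3000 UMIs, which left out 1087 adult and 756 old cells, Grm7 was still seen in 3.21% (adult) and 31.5% (old) of cells, Hdac9 in 2.82% and 22.8%, and Tenm2 in 9.85% and 27.0%. Nrg3 was the exception, as given earlier. At this depth at least 1 of the 10 genes was present in 45.1% (adult) and 77.5% (old) of cells, and at least 3 of them in 1.02% and 14.7%. The unthinned shares for at least 3 were 5.78% and 30.5%.

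Around the Cxcl12 threshold of the gate, the share of old cells with Grm7 or Hdac9 differed little. Grm7 was found in 23.9% of old cells just outside it (5 to 9 UMIs of Cxcl12), 26.8% just inside (10 to 14) and 42.4% of cells with at least 30, and Hdac9 in 24.4%, 24.5% and 32.7%. The summed levels differed more, with Grm7 at 60.6, 219 and 328 CPM and Hdac9 at 62.1, 175 and 183 CPM. The outer band had a mean of 16128 UMIs per cell at a median of 4135.5, against a mean of 6949.8 at a median of 4145 just inside, so that deep barcodes enter its CPM. In the adult library Grm7 stood at 11.2, 11.9 and 19.1 CPM and Hdac9 at 15.3, 21.1 and 14.4 CPM over the same bands, the latter with no order.

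Pairs of the 10 genes fell into sets by the cells that carried them. Co-detection was measured as the number of cells with UMIs of both genes over the number expected from their single shares, in cells thinned to 3000 UMIs. A pair was counted where at least 5 cells were expected, which held for 31 of 45 pairs in adult and 45 in old cells. In old cells the ratio was 1.50 for Grm7 and Nrg3 (interval 1.43 to 1.56, 1873 cells), 1.26 for Grm7 and Tenm2 (1.20 to 1.33) and 1.38 for Tenm2 and Nrg3 (1.31 to 1.44). In adult cells the same pairs had 1.24, 1.54 and 1.39. All 3 intervals lay above 1 in each library, and 10.8% of old cells held both Grm7 and Tenm2 at this depth. Without cells passing another class gate, 1 of the 3 adult intervals lay above 1, with Grm7 and Tenm2 at 1.40 (0.95 to 1.98) and Grm7 and Nrg3 at 1.20 (0.96 to 1.47).

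The 6 sparse genes formed a second set, given first for the old library. The highest ratios were 7.51 for Lrrtm4 and Hs3st4 (6.01 to 9.27, 86 cells), 5.83 for Lrrtm4 and Kcnip4 (4.39 to 7.58, 55 cells) and 4.35 for Unc5d and Shank2 (3.18 to 5.82, 45 cells). Of the 15 pairs within this set, 13 had an interval above 1, and the median ratio was 2.73. Across the sets, 17 of 18 pairs had an interval below 1, from 0.24 for Grm7 and Hs3st4 upwards, and the exception was Tenm2 with Astn2 at 1.10 (0.99 to 1.22). In unthinned cells 11 of the 18 had an interval below 1, Grm7 with Hs3st4 stood at 0.46, and Tenm2 with Astn2 lay above 1 at 1.17 (1.10 to 1.24). The sets were named after these values had been seen, so they are a description.

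In thinned adult cells only 4 pairs within the second set could be counted, and 2 had an interval above 1, Astn2 with Hs3st4 at 2.49 and Astn2 with Shank2. Of 17 thinned adult pairs across the sets, 5 had an interval below 1 and 2 above it. In unthinned adult cells all 15 pairs within the second set were counted, 12 had an interval above 1 and the median was 2.04. The unthinned old cells had 15 and 2.49. Across the sets, 3 of 18 unthinned adult intervals lay below 1 and 4 above it. Depth varies between unthinned cells, and its part was not tested. Hdac9 had mixed ratios in old cells, at 1.04 with Grm7 (0.98 to 1.11), 0.70 with Tenm2, 0.49 with Shank2 and 1.24 with Lrrtm4 (1.01 to 1.51), the 1 of its 9 pairs with an interval above 1. Without cells passing another class gate, the old ratios ran from 1.21 to 1.41 within the first set and had a median of 2.64 over the 10 countable pairs of the second set and of 0.62 across the sets. Across the sets 14 of 18 intervals then lay below 1, and Shank2 with Hs3st4 went from 2.73 to 1.52 (0.70 to 2.89). The other 5 pairs of the second set, Unc5d with Shank2 among them, had too few expected cells to be counted there.

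**Figure D3:**
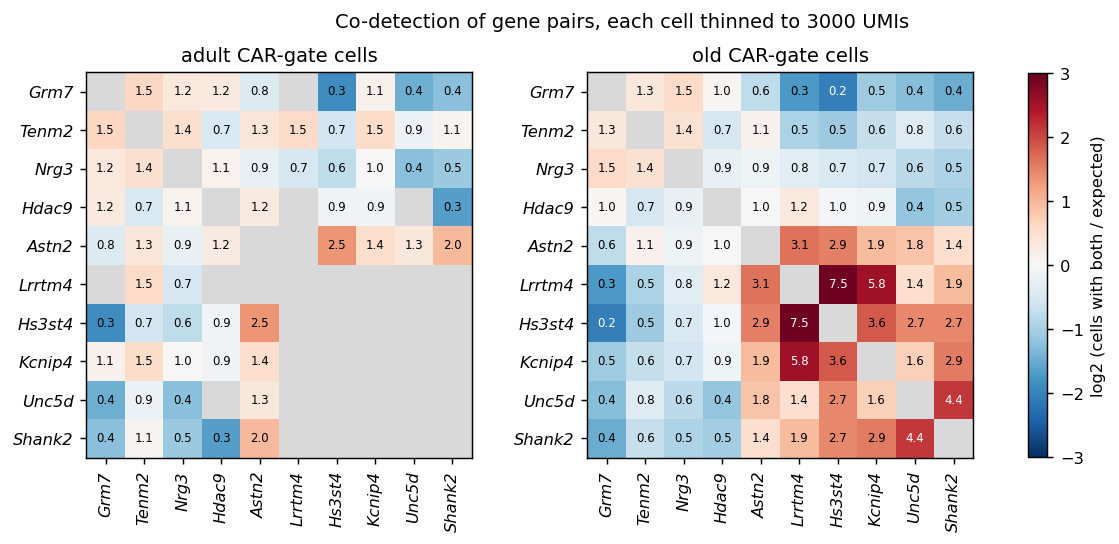
Cells with both genes of a pair over the number expected from their single shares (printed value; colour is its log2, red above and blue below 1) in adult and old CAR-gate cells thinned to 3000 UMIs; grey marks pairs with under 5 expected cells. In old cells the block of Astn2, Lrrtm4, Hs3st4, Kcnip4, Unc5d and Shank2 reaches 7.51, while Grm7 with Hs3st4 lies at 0.24.

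Cells that carried Grm7, of the first set, and Shank2, of the second, also differed in other genes. Of the second set only Shank2 and Astn2 were examined in this way. Old CAR-gate cells with 0, with 1 to 4 and with at least 5 UMIs of Grm7 numbered 8134, 2714 and 2696. Lepr stood at 1974, 2418 and 2790 CPM in them, Kitl at 3046, 3745 and 4513 CPM, and Nrg3 at 234, 420 and 697 CPM, so that all 3 were higher where Grm7 was higher. Alpl, an early osteoblast enzyme, stood at 123, 50.7 and 24.6 CPM, Shank2 at 22.2, 8.99 and 5.05 CPM, and Cxcl13, a B cell chemokine, at 148, 117 and 45.1 CPM. Other CAR and bone genes had no such order. Cxcl12 stood at 6791, 7336 and 7086 CPM, Adipoq at 1094, 1193 and 1101 CPM, and Col1a1 at 346, 131 and 322 CPM. The median depth also went from 7580.5 to 9780 UMIs, and its part in these levels was not tested.

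Cells with Shank2 showed the opposite for Alpl and Lepr. In the old library the 12441 cells without it, the 1034 with 1 to 4 UMIs and the 69 with at least 5 had Alpl at 59.7, 293 and 342 CPM, Lepr at 2348, 1533 and 1214 CPM and Grm7 at 342, 142 and 55.0 CPM. Col1a1 had no order over these bands, at 285, 423 and 235 CPM. The median depth was 7930, 10777 and 14668 UMIs. The part of depth, and of cells passing another class gate, in these levels was not tested. In the adult library Alpl stood at 289 CPM in cells without Shank2 and 848 CPM in those with 1 to 4 UMIs. Astn2-positive cells lay between, with Alpl at 73.6 CPM in old cells without Astn2 and 143 CPM in those with at least 5 UMIs. Cells with Hdac9 had Alpl at 37.7 CPM where they held at least 5 UMIs, against 109 CPM where they held none, while Grm7 stood at 345 and 308 CPM.

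Outside the CAR gate, cells were assigned to a class where at least 3 markers of that class, and of no other, had at least 2 UMIs. The classes are called "-like" because they rest on markers alone, and classes under 50 cells in a library are not shown. Grm7 was highest in CAR-gate cells. In the old library it stood at 32.2 CPM in 333 megakaryocyte-like cells, 12.6 CPM in 226 endothelial-like cells, 12.4 CPM in 158 pericyte-like or smooth muscle-like cells, 4.74 CPM in 605 osteolineage-like cells, 2.17 CPM in 880 plasma-like cells and 1.70 CPM in 712 erythroid-like cells. The endothelial-like and pericyte-like levels did not differ beyond their intervals, nor did the plasma-like and erythroid-like ones. In adult cells every class with Grm7 UMIs lay between 0.609 and 7.27 CPM, and the 14 UMIs behind the upper value came from 1 pericyte-like cell.

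The levels in these classes were set beside those of Cxcl12, the gate gene, because free RNA from broken CAR cells gives UMIs in droplets of other cells. Cells that pass the CAR gate are left out of the classes, which limits the UMIs of Cxcl12 there and sets no limit on the 10 genes. A share above that of Cxcl12 therefore does not show RNA beyond free RNA. In old plasma-like cells Grm7 stood at 0.677% and Cxcl12 at 1.17% of its CAR level, and in old erythroid-like cells at 0.533% and 1.03%. In old megakaryocyte-like cells the values were 10.1% and 6.30%, at a median of 1723 UMIs per cell. Tenm2, Nrg3 and Hdac9 stood at 7.12%, 9.83% and 17.1% there, so that these genes and Grm7 were above the share of Cxcl12 in this class. Tenm2 lay closest to it, on 23 UMIs (20.5 CPM, interval 13.0 to 30.8). A UMI of Grm7 was found in 5.41% of megakaryocyte-like, 7.05% of plasma-like and 6.60% of erythroid-like cells, and the part of free RNA in these shares was not tested. The CAR share of 39.9% was above them, and with every cell thinned to 1000 UMIs Grm7 was found in 18.5% of old CAR-gate cells and 2.17% of megakaryocyte-like cells. In the adult library the same thinned shares were 1.49% and 0.26%, the latter 1 cell of 385, so that no order is read from them. In megakaryocyte-like cells Lrrtm4, Unc5d, Shank2 and Hs3st4 had 0 to 3 UMIs in either library, too few to compare the libraries.

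Hdac9 and Astn2 were highest in pericyte-like cells, and Hdac9 differed between the libraries there as it did in CAR cells. Hdac9 stood at 54.0 CPM (44.2 to 65.5, 293 cells) in adult and 470 CPM (428 to 515, 158 cells) in old pericyte-like cells, a log2 ratio of 3.12 (2.81 to 3.44), and was found in 18.4% and 56.3% of them. In osteolineage-like cells it stood at 13.6 and 34.0 CPM (1.32), and in endothelial-like cells at 29.4 and 39.6 CPM (0.43, interval −0.08 to 0.91). Old plasma-like cells held Hdac9 at 16.5 CPM, 8.75% of its CAR level, with a UMI in 22.7% of cells at a median of 34766 UMIs. That level was above the share of Cxcl12 given earlier, which the gate limits. Astn2 in pericyte-like cells stood at 246 CPM (adult) and 365 CPM (old; log2 ratio 0.57, interval 0.36 to 0.77).

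Shank2 and Kcnip4 were highest in old osteolineage-like cells. Shank2 stood at 6.92 CPM among adult osteolineage-like cells (1765) and 65.6 CPM among old ones (605), a log2 ratio of 3.24 (3.00 to 3.49), and was found in 7.03% and 32.4% of them. Kcnip4 stood at 11.2 and 47.0 CPM (2.07, 1.84 to 2.29), with positive shares of 5.44% and 14.2%. In adult cells the osteolineage-like level of Shank2 was close to the 6.11 CPM of the CAR gate. Nrg3 stood at 14.9 CPM (adult) and 8.65 CPM (old), and its log2 ratio of −0.78 became −0.08 with class markers of 1 or more UMIs and −0.21 with 3 or more. In old CAR cells both Shank2 and Kcnip4 lay below their osteolineage-like levels. The old class held fewer bone matrix transcripts, with Bglap, the osteocalcin gene, at 21598 CPM (adult) and 6083 CPM (old), and Col2a1 and Col11a2, which are also cartilage genes, were among its leading genes; their part in the Shank2 and Kcnip4 levels was not tested.

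Of the 4 genes past the minimum level in the osteolineage-like class (Nrg3, Kcnip4, Shank2 and Hdac9), 3 were at least 2-fold higher in old cells, where 904 of 8399 genes, or 10.8%, were. Shank2 passed the minimum only through its old level and Nrg3 only through its adult level. In the pericyte-like class 2 passed the minimum (Astn2 and Hdac9) and 1 was at least 2-fold higher, where 115 of 3154 genes, or 3.65%, were. The 10 genes were chosen as higher in old CAR cells of these same libraries, so nothing is read from these counts. Among genes on loci of at least 500 kb, without the 10, the shares at least 2-fold higher were 25.7% of 113 in the osteolineage-like and 19.2% of 73 in the pericyte-like class.

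**Figure D4:**
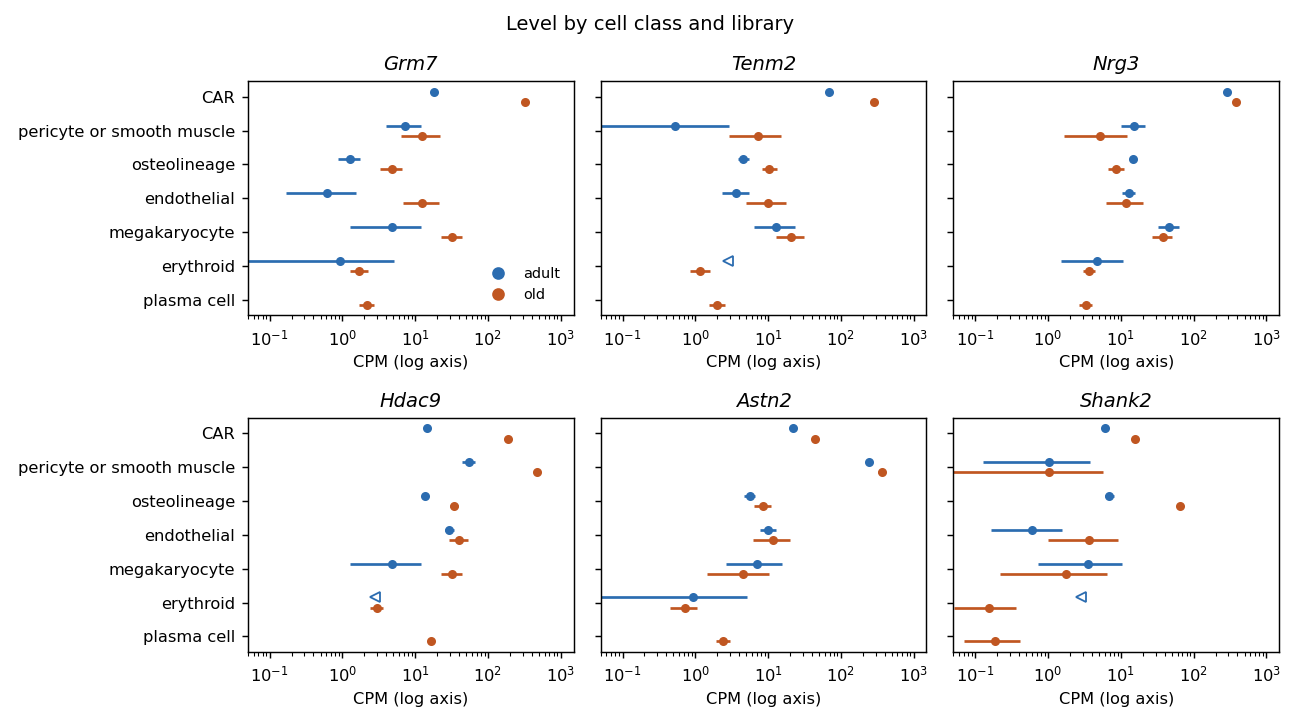
Level of Grm7, Tenm2, Nrg3, Hdac9, Astn2 and Shank2 (CPM, log axis) in CAR-gate cells and in 6 marker-gated classes of the adult (blue) and old (orange) library; bars are exact 95% counting intervals and open triangles mark classes with 0 UMIs, drawn at 3 UMIs. Grm7, Tenm2 and Nrg3 are highest in CAR cells, Hdac9 and Astn2 in the pericyte or smooth muscle class (470 and 365 CPM in the old library), and Shank2 in old osteolineage cells (65.6 CPM).

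The 10 genes lie on very long loci. In the GENCODE M21 annotation of GRCm38, matched by Ensembl identifier, they span from 416 kb (Hs3st4, chromosome 7) and 423 kb (Shank2, chromosome 7) to 1135 kb (Kcnip4, chromosome 5) and 1229 kb (Tenm2, chromosome 11), and 8 of the 10 span at least 500 kb. Exons make up from 0.319% (Kcnip4) to 2.55% (Shank2) of the locus. No other coding gene overlaps any of the 10 on the same strand. Whether intronic reads were counted is not given in the sources used here.

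Other genes on loci as long did not share one direction in CAR-gate cells. Of 134 genes past the minimum with a locus of at least 500 kb, 23 were at least 2-fold higher in old CAR-gate cells, which is 17.2%, and 20 were at least 2-fold lower, which is 14.9%. Without the 8 of the 10 genes among them, 126 were left, of which 17 were higher and 20 lower, with a median log2 ratio of 0.07. The median was −0.14 for loci under 10 kb, 0.04 from 10 to 50 kb, 0.14 from 50 to 200 kb and 0.11 from 200 to 500 kb. In CAR-gate cells long loci thus had more large ratios in both directions and a median near that of shorter ones. Other classes differed from this. In pericyte-like cells 14 of 73 long genes were at least 2-fold higher and 2 lower, with a median of 0.54 against −0.47 for loci under 10 kb. The osteolineage-like medians were 0.39 and −0.16, and the endothelial-like ones −0.22 and −0.31.

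Among the long genes outside the 10, Kcnq5, a potassium channel gene, had the highest ratio, from 610 UMIs in all adult to 6416 UMIs in all old CAR-gate cells, the latter 47.3 CPM (log2 ratio 3.56). Dcc, a netrin receptor gene known from neurons, had the lowest, from 15.3 CPM to 0.413 CPM (−5.21). The 126 genes took 3.69% of all UMIs in adult and 4.48% in old CAR-gate cells. In pericyte-like cells their share was 2.85% and 4.39%, and in osteolineage-like cells 2.27% and 3.24%, so that it was higher in the old library in those classes as well. The endothelial-like (2.76% and 3.18%) and megakaryocyte-like shares (1.05% and 1.46%) were also higher in the old library. The erythroid-like share was lower there (0.388% and 0.369%).

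**Figure D5:**
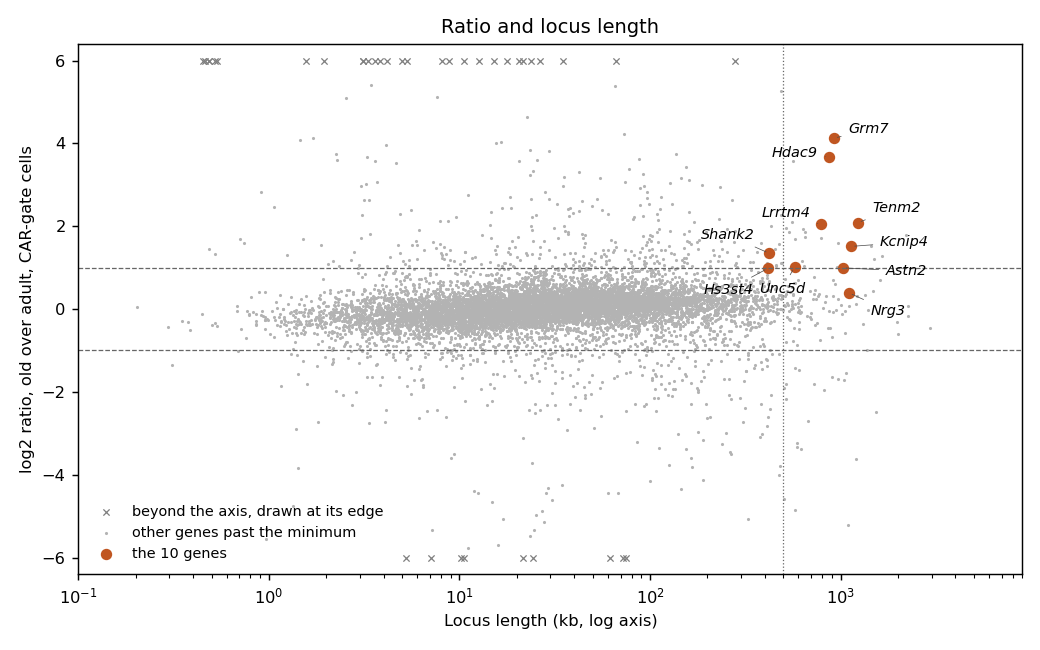
Log2 ratio of old over adult level in CAR-gate cells (vertical axis) against locus length in kb (horizontal log axis) for the 9698 genes past the minimum with a known length; the 10 genes are orange, dashed lines mark 2-fold, the dotted line marks 500 kb, and 38 genes beyond the axis are drawn as crosses at its edge. Grm7 (4.12) and Hdac9 (3.67) stand above the other long genes but Kcnq5 (3.56) lies close, and long genes spread to both sides of 0.

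Long RNAs that stay in the nucleus differed in direction among themselves. Malat1 stood at 31542 CPM (adult) and 26695 CPM (old), a log2 ratio of −0.24, Neat1 at 302 and 325 CPM (0.10), Kcnq1ot1 at 124 and 104 CPM (−0.26) and Xist at 760.4 and 838 CPM (0.14). Meg3 stood at 14.9 and 0.604 CPM (−4.62). Of these 5 RNAs, 2 were thus higher and 3 lower in the old library.

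Gene family members of the 10 mostly lay below the minimum level, as did most genes. Of 34 paralogues, 11 passed the minimum, with a median log2 ratio of 0.18. Nrg2, another neuregulin, stood at 36.9 CPM (adult) and 117 CPM (old), a log2 ratio of 1.66, and Kcnip3, a channel-interacting protein also known as a transcriptional repressor, at 29.9 and 59.8 CPM, just over 2-fold. Hs3st5, a second heparan sulfate sulfotransferase, went the other way, from 35.5 CPM to 1.06 CPM (−5.06), as did Nrg1, from 13.3 to 4.54 CPM (−1.55). The metabotropic glutamate receptors other than Grm7 were all below 2 CPM in both libraries, and Tenm4 (148 and 176 CPM), Unc5c (166 and 131 CPM) and Hdac4 (47.6 and 56.3 CPM) were within 2-fold.

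Receptors, ligands and intracellular partners of the encoded proteins were within 2-fold where they passed the minimum. Of 33 such genes, 17 passed the minimum and none was 2-fold apart, with a median of −0.06. Over all 9753 genes past the minimum, 3.84% were at least 2-fold higher and 3.59% lower, so nothing is read from this count. Below the minimum some were further apart, with Gpc3 at 7.26 and 0.25 CPM and Erbb3 at 0.262 and 0.575 CPM. Erbb4, the receptor of NRG3, stood at 1.07 CPM (adult) and 0.368 CPM (old), below the minimum. Adgrl2, a latrophilin that binds teneurins, stood at 344 and 432 CPM, and Gnao1, a G protein subunit used by metabotropic glutamate receptors, at 147 and 136 CPM. Mef2c, a partner of HDAC9, stood at 176 and 120 CPM, and Kcnd2, a channel that Kcnip4 binds, at 5.51 and 0.597 CPM, also below the minimum.

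Genes with a pattern like that of Grm7 over 13 sums (each class in each library) were found by Pearson correlation of log2(CPM + 1). Only the 3842 genes of at least 50 CPM in old CAR-gate cells were compared. Grm7 is itself high in those cells, so the candidates were narrowed by the group in which it is high. The sums also share libraries and free RNA, so the values are a description. The genes most like Grm7 were Efemp1 (0.93), Fndc1 (0.93), C3 (0.92), Cxcl13 (0.91) and Slco1a5 (0.87). Tenm2 ranked 13 on this list (0.84), Nrg3 56 (0.75) and Hdac9 226 (0.61). For Hdac9 they were Cpeb1 (0.92), Pbxip1 (0.91), Kcnab1 (0.90), Fam222b (0.88) and Gm20696 (0.86). Among old CAR-gate cells with 0, 1 to 4 and at least 5 UMIs of Grm7, Tenm2 stood at 214, 340 and 422 CPM, in the same order as Nrg3 and opposite to that of Cxcl13 given earlier.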

How the data were processed

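Single-cell RNA was measured in 1 adult and 1 old library. The authors deposited, for each, raw UMI counts per gene and cell barcode, made with Cell Ranger on GRCm39 per the submitters' processing notes (version 7.0.1 per the file headers). The labels do not state whether introns were counted or how barcodes were filtered. The lowest barcode total was 500 UMIs, and 152 barcodes occurred in both libraries. Barcodes with at least 500 genes and at most 10% mitochondrial UMIs were kept. The gate and classes were built as described; cells are not replicates, so UMIs were summed per class and library. CAR-gate sums were 152572904 UMIs in adult and 135756418 in old cells. Sparse sums, ratios with exact conditional binomial intervals, thinning and co-detection were computed in Python 3.11.15 with numpy 2.4.6, scipy 1.17.1 and pandas 2.3.3, after tests on simulated data. No doublet caller was run. Neuron, Schwann cell, paralogue, partner and nuclear RNA lists were set by hand; from the paralogue and partner lists, genes past the minimum and at least 2-fold apart are named, and others named were chosen after their values were seen. The 10 genes and all lists were chosen with earlier results of these data known. Alternatives were other gates, cell filters, cell weights, denominators, depths, level minimums and a centring by locus length. Leaving other-class cells out of co-detection was added after seeing the data.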

Additional observations from a re-analysis of the deposited data

Results flagged for a closer look

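With class markers of at least 2 UMIs, the log2 ratio of Nrg3 differed in sign between cell classes. The ratio of old over adult was 0.39 in CAR-gate cells, −0.78 (interval −1.19 to −0.39) in osteolineage-like cells and −1.55 (−3.27 to −0.16) in pericyte-like cells. The last rests on 29 adult and 5 old UMIs. In osteolineage-like cells Nrg3 stood at 5.10% of its CAR level in adult and 2.27% in old cells, beside 4.39% and 4.38% for Cxcl12. With class markers of 1 or more and of 3 or more UMIs the osteolineage-like ratio became −0.08 and −0.21, and the pericyte-like ratio turned to 1.36 and 0.60, so that the direction in pericyte-like cells depends on this setting. There is 1 library per age, and the difference between classes was not tested.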

How the results depend on the processing

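The log2 ratios of all 10 genes in CAR-gate cells were above 0 under each of the 9 alternatives run, and the number at least 2-fold higher ran from 6 (centred by locus length) to 9, against 7. The count of all genes at least 2-fold higher, 375, became 125 with a minimum of 50 CPM and 1122 with no CPM minimum; the count at least 2-fold lower, 350, became 129 and 1132, and 214 without cells passing another class gate. The median log2 ratio of genes with loci of at least 500 kb, 0.07, became 0.19 without those cells, 0.12 with each cell weighted alike, 0.16 thinned to 3000 UMIs and 0.16 without the deepest 5% of cells. The co-detection ratio of Nrg3 and Astn2 in old cells, 0.90, became 1.03 in unthinned cells. The pericyte-like log2 ratio of Nrg3, −1.55, became 1.36 with class markers of 1 or more UMIs and 0.60 with 3 or more. Which cells entered differed between these settings; the cause was not tested. Depth limits the sparse genes: 14 adult pairs had too few expected cells when thinned to 3000 UMIs. No paired analysis was possible because each age is 1 library.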
